A study of Mus musculus with 2 samples.

Results

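The Slc25 genes encode the mitochondrial carriers, proteins of the inner mitochondrial membrane that let metabolites, nucleotides and cofactors in and out of the matrix. They were taken as all probe sets whose platform annotation gives exactly 1 gene symbol beginning with Slc25a, which found 93 probe sets for 44 genes among 34945 such probe sets for 18193 genes. The study compared liver after an acute kidney injury with liver after sham surgery. The AKI pool came from female wild-type C57BL/6 mice, 8 weeks old, sampled 24 h after both kidneys had been made ischemic at body warmth for 30 min and reperfused, and the sham pool from female wild-type C57BL/6 mice of the same age, 24 h after a sham operation. Each pool combined 100 mg of liver from each of 3 mice, and was measured on 1 Affymetrix array from 8 ug of total RNA. There is no replicate array in either group, so variation between mice cannot be estimated, no test between the groups can be made and "higher" and "lower" describe these 2 pools. In pooled whole liver, fewer cells of a type and less RNA per cell cannot be told apart.

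Most carriers exchange a substrate of the matrix for one of the intermembrane space. They carry ATP out and ADP and phosphate in for oxidative phosphorylation, and they connect mitochondria with cytosolic pathways. Hepatocytes depend on them for ureagenesis, for gluconeogenesis from lactate and amino acids, for the export of citrate to fatty acid synthesis, and for the entry of acylcarnitines into fatty acid oxidation. Several substrates are served by more than one carrier, of which some are found mainly in liver and others in brain, muscle or germ cells.

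Values below are signals in array units, and a difference is the AKI value minus the sham value after taking log2(signal + 71.8), where 71.8 is the lower quartile of the table. This scale understates differences of weak genes. A gene is represented by its probe set with the highest mean signal. Of the 44 genes, 1 (2.27%) was higher in the AKI pool by 2-fold or more, against 9.48% of all 18193 genes, and 5 (11.4%) were lower by 2-fold or more, against 10.6% of all genes. The lower share is near that of all genes. The median difference was -0.09 for the carriers and 0.00 for all genes. Centring on hybridization controls moved both medians up by 0.30 and turned that of the carriers to 0.20, and centring on reference genes moved both down by 0.20. Of the other 38 carriers, 23 differed by less than 0.5.

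The carrier past 2-fold on the higher side was Slc25a47, and those on the lower side were Slc25a23, Slc25a13, Slc25a42, Slc25a15 and Slc25a11. All 6 had a mean signal at or above 403, the median over genes, as had 28 of the 44 carriers. Among genes of such signals 10.1% were past 2-fold on the higher side and 12% on the lower side. Among the other 16 carriers none passed 2-fold by its representative probe set, against 8.82% on the higher side and 9.23% on the lower side for all genes of such signals. For a gauge of weak signals, 15 control probe sets for Bacillus genes had medians of 22.2 on the AKI array and 14.4 on the sham array and reached 96.1 and 132.7 on these arrays. Whether their targets were added to the samples is unknown here. The carriers Slc25a31, Slc25a41 and Slc25a14 lay under this ceiling on both arrays.

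**Figure D1:**
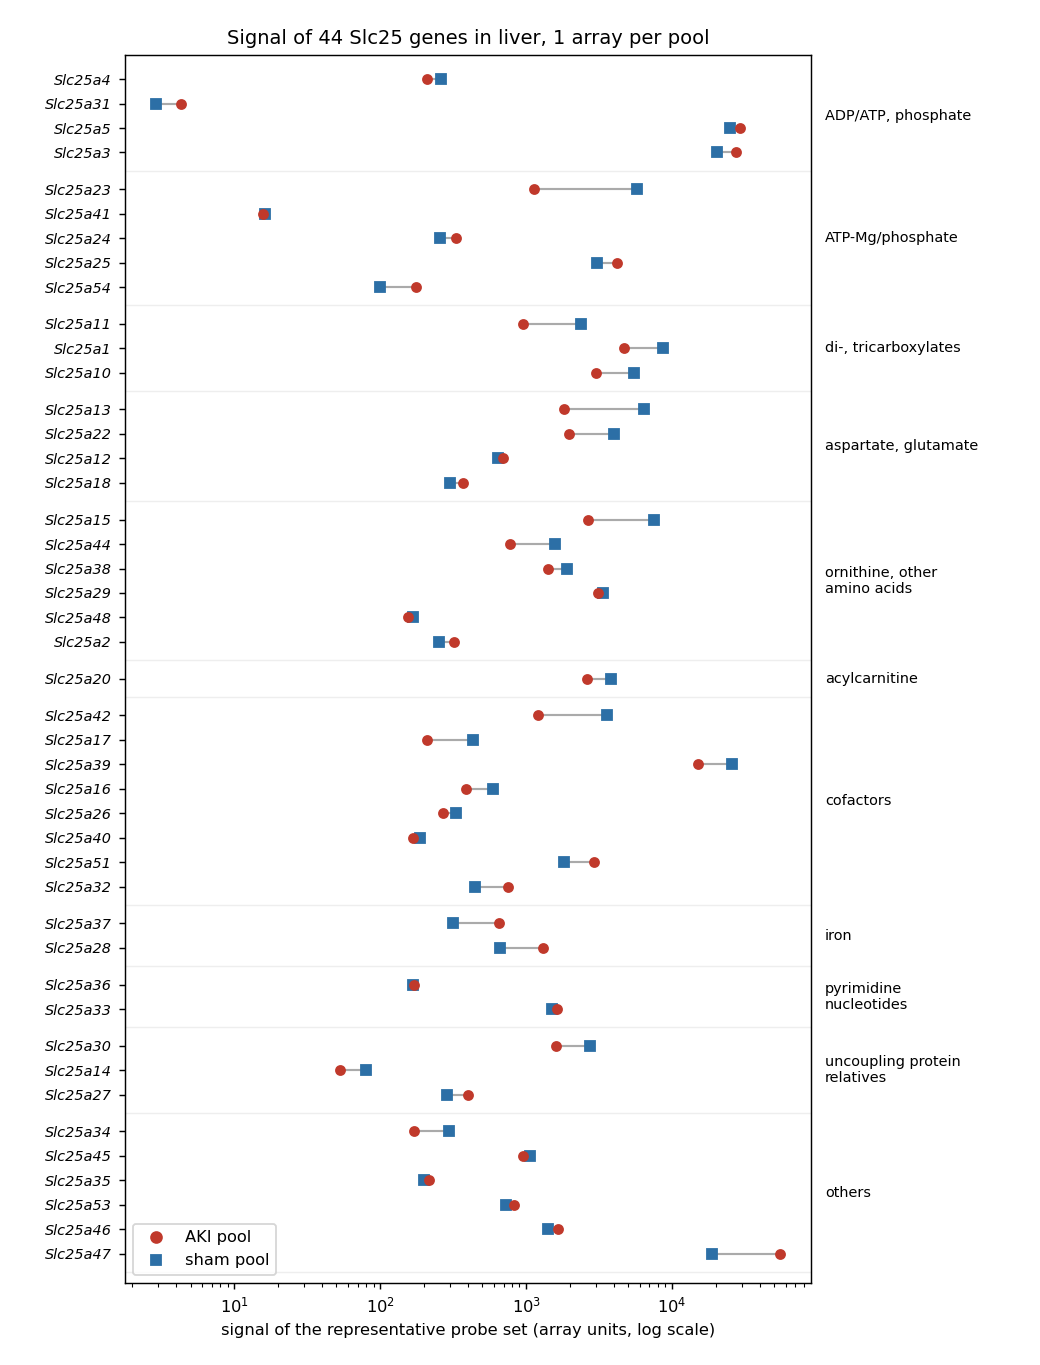
Signal of the representative probe set of each of the 44 Slc25 genes on the AKI array (red circles) and the sham array (blue squares), 1 array per pool, grouped by role, on a log axis in array units. AKI lies far to the left for Slc25a23 (1131 AKI, 5787 sham), Slc25a13 (1823 AKI, 6458 sham) and Slc25a42 (1202 AKI, 3604 sham), and far to the right for Slc25a47 (54990.5 AKI, 18795 sham).

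The promoters of the carriers with the lowest and the highest difference are shown to set the ends of the family side by side. They are RefSeq windows of 300 bases, from 250 before to 50 after an annotated gene start, in assembly GRCm38.p6, printed 5′ to 3′ on the strand of the gene. Capitals mark GC boxes (GGGCGG) and CCAAT boxes (CCAAT) on either strand. The window of Slc25a23 lies at chr17:57059814-57060113 on the minus strand and is the first of its 2 windows in the table, and that of Slc25a47 lies at chr12:108850879-108851178 on the plus strand.
Slc25a23: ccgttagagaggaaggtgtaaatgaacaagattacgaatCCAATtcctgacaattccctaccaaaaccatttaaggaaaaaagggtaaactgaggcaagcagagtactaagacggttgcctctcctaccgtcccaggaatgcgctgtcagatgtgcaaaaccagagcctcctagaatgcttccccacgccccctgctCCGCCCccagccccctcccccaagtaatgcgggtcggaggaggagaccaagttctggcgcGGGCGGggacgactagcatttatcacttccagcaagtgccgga
Slc25a47: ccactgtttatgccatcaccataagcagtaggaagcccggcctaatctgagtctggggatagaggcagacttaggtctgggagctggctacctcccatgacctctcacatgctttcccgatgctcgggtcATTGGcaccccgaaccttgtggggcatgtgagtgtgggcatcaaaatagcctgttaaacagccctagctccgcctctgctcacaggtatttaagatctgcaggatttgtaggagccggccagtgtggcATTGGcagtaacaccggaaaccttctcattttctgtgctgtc

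The Slc25a23 window holds 2 GC boxes and 1 CCAAT box, and the Slc25a47 window holds 0 GC boxes and 2 CCAAT boxes. Across the family, 34 of the 44 genes matched the promoter table with 43 windows. A GC box was found in 37 of the 43, or 86.0%, against 46.2% of 21262 windows of protein-coding genes and 35.7% of all 32851 windows. A TATA box (TATAAA, either strand) was found in 1, that of Slc25a18, or 2.33%, against 12.6% of protein-coding windows. The CCAAT box was in 48.8% of carrier windows and 38.2% of protein-coding windows, and an E-box (CACGTG) in 18.6% and 7.84%. The cAMP response element TGACGTCA was in 2 carrier windows, of Slc25a25 and Slc25a36, or 4.65%, against 2.23% of protein-coding windows. A motif of the transcription factor NRF1 was also in 2 carrier windows, of Slc25a3 and Slc25a31. That share, 4.65%, was below the 6.38% of protein-coding windows. Only 5 genes had no GC box in any window, namely Slc25a12, Slc25a13, Slc25a18, Slc25a47 and Slc25a54. They include the highest carrier by difference and the next to lowest, and the lowest, Slc25a23, has the box in both of its windows. Carrier windows had a median GC content of 59.7%, against 56.3% for protein-coding genes. Windows with more G and C hold a GC box more often by composition alone, but its part in these shares was not tested. Matches describe letters, not bound sites.

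ADP/ATP and phosphate carriers feed ATP synthase and export its product. Slc25a5, the ADP/ATP translocase of most tissues, had a signal of 29398 in the AKI pool and 25092 in the sham pool, a difference of 0.23. Slc25a3, which brings in phosphate, had 27632 in the AKI pool and 20259.7 in the sham pool, a difference of 0.45. Neither reached 2-fold. All 8 probe sets of Slc25a5 lay between -0.16 and 0.61, though 7 of them carry a suffix for probes that may match related transcripts. The muscle and heart translocase Slc25a4 had 208 in the AKI pool and 260.4 in the sham pool. The germ cell translocase Slc25a31 had 4.30 in the AKI pool and 2.90 in the sham pool, at the bottom of the range on both arrays. These translocases are close in sequence, and their values are uncertain where probes match more than 1 of them.

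Calcium-regulated ATP-Mg/phosphate carriers adjust the adenine nucleotide content of the matrix when cytosolic calcium rises, through a calcium-binding domain that faces the intermembrane space. Slc25a23 was the lowest of all 44 carriers, with a signal of 1131 in the AKI pool and 5787 in the sham pool, a difference of -2.28 and a signal ratio (AKI over sham) of 0.195. It has 1 probe set, so no repeat measurement bears on it. Its relatives had smaller differences, which were not tested against it. Slc25a25 had 4210.1 in the AKI pool and 3062 in the sham pool (0.45), but its other probe sets were at -0.59 and -0.12. Slc25a24 had 333 in the AKI pool and 255 in the sham pool (0.31), and its other probe set, weaker, was at -1.13. Slc25a54 (175 in the AKI pool, 100.2 in the sham pool) and Slc25a41 (15.8 in the AKI pool, 16.2 in the sham pool) were weak. Both belong to the same subfamily, but regulation by calcium is not ascribed to them here.

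Carriers of di- and tricarboxylates, which move citrate, malate, succinate and 2-oxoglutarate between matrix and cytosol, were all lower in the AKI pool, under every scaling tried. Slc25a11, the malate/2-oxoglutarate exchanger of the malate-aspartate shuttle, had a signal of 945 in the AKI pool and 2377 in the sham pool, a difference of -1.27. Slc25a1, the citrate exporter that supplies acetyl-CoA for fatty acid and sterol synthesis, had 4674 in the AKI pool and 8626 in the sham pool (-0.87). Slc25a10, which exchanges malate or succinate for phosphate, had 3033 in the AKI pool and 5499 in the sham pool (-0.84), and its second probe set was at -1.53. Of these 3, Slc25a11 alone passed 2-fold with its representative probe set, and centring on hybridization controls put it at -0.97.

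Aspartate and glutamate carriers split by isoform. Slc25a13, citrin, is the aspartate/glutamate exchanger of liver, which supplies aspartate for the urea cycle and runs the malate-aspartate shuttle. Its signal was 1823 in the AKI pool and 6458 in the sham pool, a difference of -1.78 and a ratio of 0.282. Slc25a12, aralar, the isoform of brain and muscle, had 692 in the AKI pool and 646 in the sham pool, a difference of 0.09 that changed sign with the scaling. Its other probe sets were at 0.14 and -0.33. The glutamate carriers differed likewise: Slc25a22 had 1971 in the AKI pool and 4000.4 in the sham pool (-0.99, just inside 2-fold), and Slc25a18 had 368 in the AKI pool and 301 in the sham pool (0.24). The differences between isoforms were not tested.

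Carriers of ornithine and other amino acids ran from -1.47 to 0.28. Slc25a15, the ornithine/citrulline exchanger that links the matrix and cytosolic steps of the urea cycle, had a signal of 2669 in the AKI pool and 7497 in the sham pool, a difference of -1.47. Its second probe set, with 605 in the AKI pool and 1321 in the sham pool, was at -1.04. It was the carrier with several probe sets for which all of them were at least 2-fold lower. Slc25a2, a second ornithine carrier, had 319.9 in the AKI pool and 251 in the sham pool (0.28). Slc25a44, a carrier of branched-chain amino acids, had 781 in the AKI pool and 1566 in the sham pool (-0.94), with other probe sets at -0.56 and 0.39. By its strongest probe set the signal ratio (sham over AKI) was 2.005, although the difference lay inside 2-fold. Slc25a38, which is needed for heme synthesis and thought to bring in glycine, had 1403 in the AKI pool and 1905 in the sham pool (-0.42).

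The probe sets of Slc25a29, a carrier of basic amino acids, disagreed. The strongest had 3107 in the AKI pool and 3389.9 in the sham pool (-0.12), whereas a weak one had 418 in the AKI pool and 81.1 in the sham pool (1.68) and another 166 in the AKI pool and 38.0 in the sham pool (1.11). Slc25a48 was weak, with 155 in the AKI pool and 167 in the sham pool. Slc25a20, the carnitine/acylcarnitine exchanger through which long-chain acyl groups enter the matrix, had 2633 in the AKI pool and 3789 in the sham pool. Its probe sets were at -0.51 and -0.24, both inside 2-fold.

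Cofactor carriers went both ways. Slc25a42, which carries coenzyme A in exchange for adenine nucleotides, had a signal of 1202 in the AKI pool and 3604 in the sham pool, a difference of -1.53. Its second probe set went the other way (1.13) at weak signals of 171 in the AKI pool and 39.3 in the sham pool, and the mean of both was -0.20. Slc25a16, a carrier also linked to coenzyme A, had 388 in the AKI pool and 595 in the sham pool (-0.54). Slc25a17, a carrier of coenzyme A and related nucleotides that sits in peroxisomes and not in mitochondria, had 211 in the AKI pool and 432 in the sham pool (-0.84), and its second probe set was at -1.31. The signal ratio (sham over AKI) of its representative was 2.05, although the difference lay inside 2-fold.

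Slc25a51, which in human cells brings NAD into mitochondria, was higher in the AKI pool by all of its 3 probe sets. The strongest had 2929.6 in the AKI pool and 1824 in the sham pool, a difference of 0.66. The next had 2176 in the AKI pool and 806 in the sham pool (1.36), and the last had 1102 in the AKI pool and 274 in the sham pool (1.76). By the mean of its probe sets it was at 1.26, past 2-fold, although its representative was not. Slc25a32, known for mitochondrial folate entry in hamster and human cells, was also higher by all 3 probe sets, at 0.67, 1.33 and 0.41. Its representative had 751 in the AKI pool and 444 in the sham pool.

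Slc25a39 and Slc25a40 are carriers needed for mitochondrial glutathione in human cells. Slc25a39 had a signal of 15019.7 in the AKI pool and 25897 in the sham pool, a difference of -0.78. Of its 5 probe sets 4 were lower, down to -1.43, and 1 was at 0.03. Slc25a40 was weak, with 167 in the AKI pool and 187 in the sham pool. Slc25a26, which carries S-adenosylmethionine, had 268 in the AKI pool and 329 in the sham pool.

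Both mitoferrins, which bring iron into the matrix for heme and iron-sulfur cluster synthesis, were higher in the AKI pool under every scaling tried. Slc25a28, the form of most tissues, had a signal of 1315 in the AKI pool and 659 in the sham pool, a difference of 0.92. Slc25a37, the form of erythroid cells, had 649.6 in the AKI pool and 317 in the sham pool, a difference of 0.89. Their signal ratios were 1.995 for Slc25a28 and 2.05 for Slc25a37, and neither passed 2-fold on the log2(signal + 71.8) scale. Each has 1 probe set. Of 8 erythroid markers, the 4 that were on the table lay between -0.18 and 0.19. Their summed signal was 1599.8 in the AKI pool and 1457 in the sham pool. Among them Hba-a1, Slc4a1 and Epb42 (35.9 in the AKI pool, 23.1 in the sham pool) were weak, where the scale understates differences. Of the 6 measured partner genes of iron-sulfur cluster and heme synthesis, 0 passed 2-fold either way, with a median of -0.23.

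The pyrimidine nucleotide carriers differed little by their representative probe sets. Slc25a33 had 1635 in the AKI pool and 1515 in the sham pool, and Slc25a36 had 172 in the AKI pool and 168 in the sham pool. Weaker probe sets of Slc25a36 were at 0.80 and -0.16. Among relatives of the uncoupling proteins, Slc25a30, first described in kidney, had 1601 in the AKI pool and 2743 in the sham pool (-0.75). All 5 of its probe sets were lower, between -1.70 and -0.30. Slc25a27, a form of brain, had 402 in the AKI pool and 287 in the sham pool (0.40), and Slc25a14 had 52.8 in the AKI pool and 80.2 in the sham pool.

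Slc25a47, a carrier found mainly in hepatocytes whose substrate is not settled, was the highest of the 44. Its signal was 54990.5 in the AKI pool and 18795 in the sham pool, a difference of 1.55 and a signal ratio of 2.93. Its difference stayed past 2-fold under each of 7 alternatives, though the mean of all probe sets could only repeat its 1 value. It has 1 probe set, whose suffix marks probes that may match more than 1 transcript, so an eighth alternative that leaves such probe sets out gives no value for it. Slc25a46, which sits in the outer membrane and acts in mitochondrial shape, had 1654 in the AKI pool and 1410.3 in the sham pool (0.22). Slc25a34 had 169 in the AKI pool and 298 in the sham pool (-0.61). Slc25a35 (214 in the AKI pool, 199 in the sham pool), Slc25a45 (952 in the AKI pool, 1057 in the sham pool) and Slc25a53 (827 in the AKI pool, 722 in the sham pool) lay within 0.2 of 0. A weaker probe set of Slc25a53 was at -0.64.

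**Figure D2:**
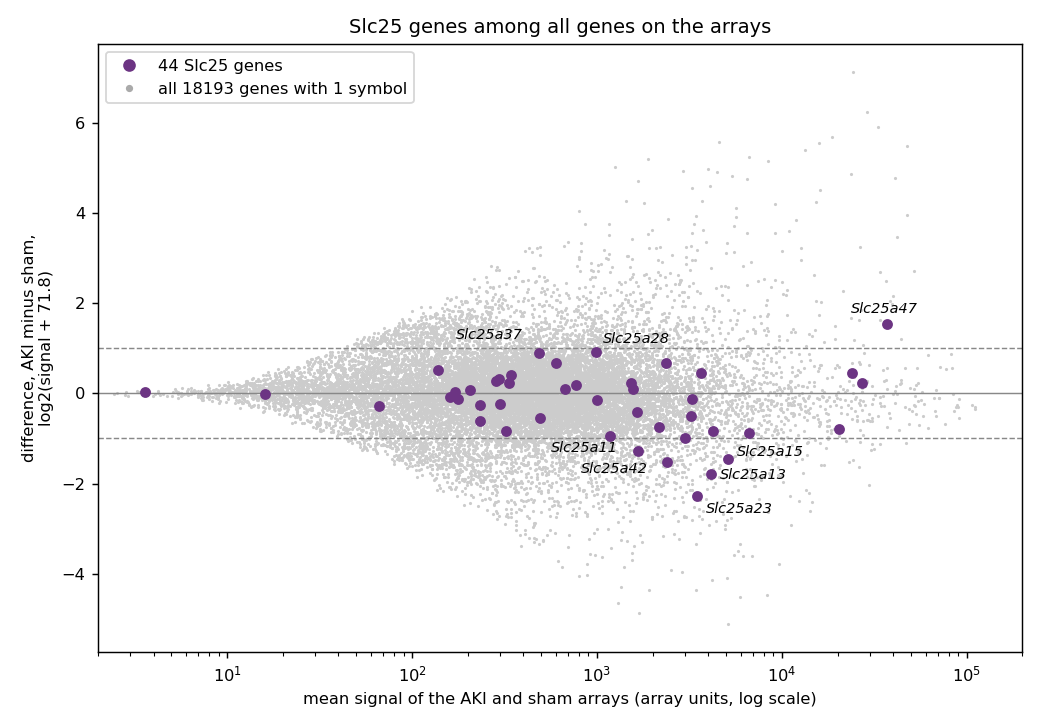
Difference (AKI minus sham, log2(signal + 71.8)) against mean signal of the 2 arrays on a log axis for 18193 genes (grey) and the 44 Slc25 genes (purple), with dashed lines at 2-fold. The carriers spread within the cloud, from -2.28 for Slc25a23 to 1.55 for Slc25a47, and the weakest, at the left, lie near 0, as do other genes of such signals.

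Repeat measurements on the same arrays came from 23 carriers with several probe sets. Their differences had an SD within genes of 0.55, against 0.68 over 9010 genes with several probe sets, an error that leaves out the animals and includes different transcripts. For 9 of the 23, or 39.1%, all probe sets went the same way, against 45.7% of all genes with several. Of all 93 carrier probe sets, 8 lay past 2-fold on the higher side, against 9.56% of all 34945 probe sets, and 12 on the lower side, against 9.96%. Of these 20, 8 had a mean signal below 403. The probe sets past 2-fold belonged to 6 genes on the higher side and 10 on the lower side, with Slc25a42 on both. Such a count grows with the number of probe sets per gene. Its share over all genes was not computed, so it is not read as a result about the carriers. On the same scale 2-fold is a difference of 1. Among probe sets with a mean signal of at least 403 the SD within genes was smaller, 0.43 for 12 carriers and 0.58 over 2893 genes.

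**Figure D3:**
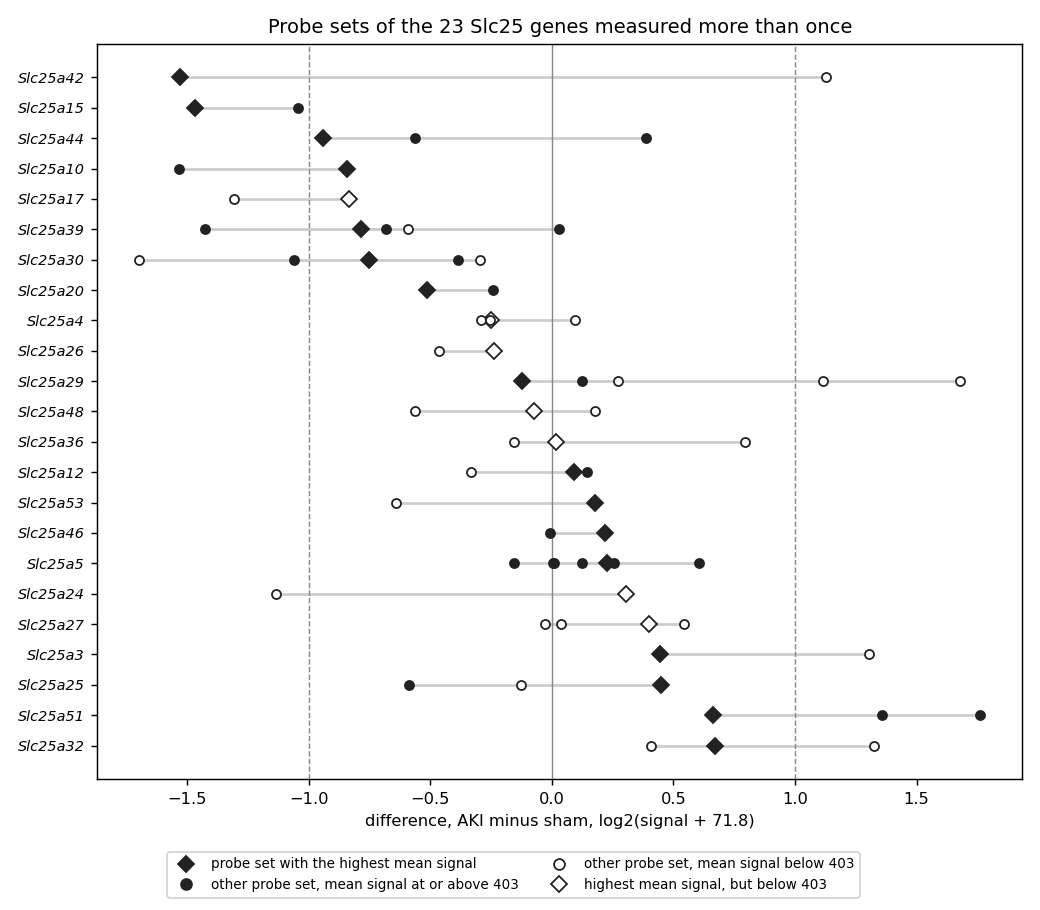
Differences (AKI minus sham, log2(signal + 71.8)) of all probe sets of the 23 Slc25 genes that have several, 1 row per gene; diamonds are the probe sets with the highest mean signal, circles the others, open symbols those with mean signal below 403, and dashed lines mark 2-fold. The probe sets of Slc25a15 (-1.47 and -1.04) and Slc25a51 (0.66 to 1.76) keep to 1 side, whereas those of Slc25a42 lie at -1.53 and 1.13.

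Genes of the pathways that the carriers serve were followed in 11 lists with 102 entries, of which 93 were measured. In all, 3 of the 93 were past 2-fold on the higher side and 21 on the lower side, and the median was -0.45. The shares over all genes, against which the counts of each list below are to be read, were 9.48% on the higher side and 10.6% on the lower side, or 10.1% and 12% among genes with a mean signal of at least 403. For urea cycle enzymes, the partners of Slc25a13 and Slc25a15, 0 of 6 passed 2-fold either way and the median was -0.47. The enzymes of the malate-aspartate shuttle, partners of Slc25a11 and Slc25a13, also had 0 of 4 past 2-fold, with a median of -0.20. By representative probe sets the lowest enzymes of both lists were Ass1 (-0.79) and Mdh1 (-0.72). Ass1 had weak signals, 185 in the AKI pool and 371 in the sham pool, where the scale understates differences. The 3 probe sets of Otc spanned -2.96 to -0.17, and the 5 of Mdh1 spanned -1.22 to 0.22.

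In the list of citrate and pyruvate genes 3 of 6 were lower by 2-fold or more and 0 higher by as much, with a median of -0.997. They were Acly (-2.37), which cleaves the citrate that Slc25a1 exports, Me1 (-1.19), which makes NADPH from malate, and Acaca (-1.11), which makes malonyl-CoA. The 6 probe sets of Acly spanned -2.37 to 0.38, and other probe sets of Me1 and Acaca were at -0.68 and -0.34. In the list of coenzyme A, thiamine pyrophosphate and NAD synthesis 3 of 10 were lower by 2-fold or more and 0 higher by as much. The list median was -0.39. Coasy (-2.68) and Pank1 (-2.57), the last and the first enzyme of coenzyme A synthesis, and Nadk2 (-1.95), the mitochondrial NAD kinase, were those 3. The 4 probe sets of Nadk2 spanned -1.95 to -0.58. Signals of Coasy were 519 in the AKI pool and 3726 in the sham pool, and those of Pank1 were 980.2 in the AKI pool and 6154 in the sham pool.

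Methyl and folate genes had 4 of 11 lower by 2-fold or more and 1 higher by as much, with a median of -0.26. Mthfd1 (-3.49) and Shmt1 (-1.90) act on folates in the cytosol and Shmt2 (-1.86) in mitochondria. The 4 probe sets of Shmt2 spanned -1.86 to -0.20. Bhmt (-1.26), which remethylates homocysteine, was lower and the mitochondrial folate enzyme Mthfd2 (1.11) was higher, both named here after their values were seen. Another probe set of Mthfd2 was at 0.63. Amino acid and glutathione genes had 7 of 15 lower by 2-fold or more and 1 higher by as much, with a median of -0.77. The 7 past 2-fold on the lower side were led by Gldc (-2.42) of glycine cleavage, Prodh (-1.68) of proline breakdown and Gclc (-1.49) of glutathione synthesis. The gene past 2-fold on the higher side, chosen after its value was seen, was glutamine synthetase, Glul (1.28), with another probe set at -0.27. Of carnitine and acyl-CoA genes 1 of 9 was lower by 2-fold or more, Hadha (-1.80) of beta-oxidation. In that list 0 were higher by as much, and the median was -0.53.

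The import and inner membrane list had 1 of 13 past 2-fold on the higher side, the outer membrane receptor Tomm20 (1.75). The 6 probe sets of Tomm20 spanned -0.31 to 2.21. Opa1 (-1.11), which fuses inner membranes, was the 1 gene past 2-fold on the lower side, and its 3 probe sets spanned -1.11 to -0.30. The list median was -0.38, with 9 genes lower and 4 higher by any amount. Genes that control mitochondrial gene expression had 2 of 9 lower by 2-fold or more and 0 higher by as much, with a median of -0.55. These were the coactivator Ppargc1b, with a signal of 96.8 in the AKI pool and 2027 in the sham pool (-3.64), and the nuclear receptor Ppara (-2.01). Of 4 measured carrier proteins without an Slc25a symbol 0 passed 2-fold either way, and their differences ran from -0.95 (Mtch1) to 0.59 (Ucp1).

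**Figure D4:**
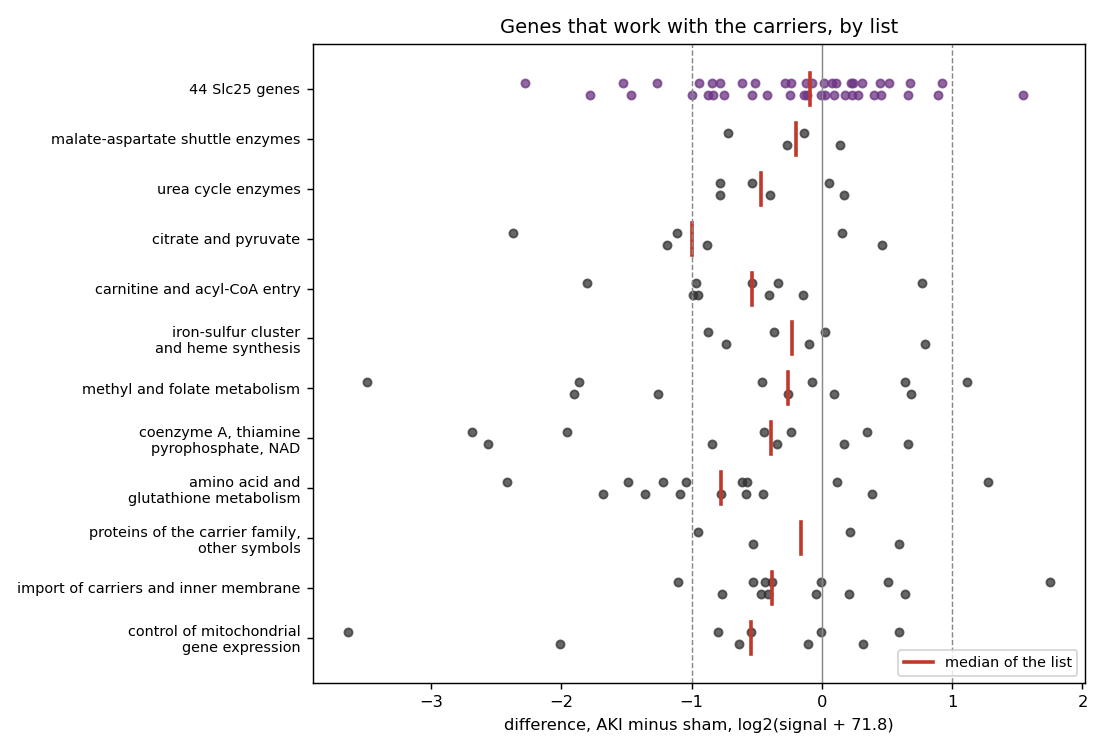
Differences (AKI minus sham, log2(signal + 71.8)) of the 44 Slc25 genes (top row, purple) and of 93 measured genes in 11 lists of pathways the carriers serve (black), with the median of each list as a red bar and dashed lines at 2-fold. The medians of the lists lie between -0.997 and -0.16 and that of the carriers at -0.09.

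The tissue label was checked with 8 hepatocyte markers, of which the weakest, Apob, had a signal of 6920 in the AKI pool and 8917 in the sham pool. Their differences ran from -0.83 to -0.12 under the deposited scaling, and their summed signal was 490176 in the AKI pool and 622833 in the sham pool. The marker counts that follow are to be read against 9.48% of all genes past 2-fold on the higher side and 10.6% on the lower side. Of 8 neutrophil markers 3 were higher by 2-fold or more, S100a8 (3.17), S100a9 (2.72) and Ngp (1.12). The others lay between -0.03 (Mpo) and 0.76 (Elane). The summed signal of the neutrophil markers was 8246 in the AKI pool and 3385 in the sham pool. Kupffer cell and macrophage markers had 1 of 7 past 2-fold on the higher side and 2 on the lower side, with a summed signal of 5111 in the AKI pool and 8602 in the sham pool. Of 5 endothelial markers 1 was past 2-fold on the higher side, Lyve1 (2.71), and the others lay between -0.59 (Stab2) and 0.52 (Cdh5). Of 4 cholangiocyte markers 1 was past it, Sox9 (2.58), with Krt7 lowest at -0.77. Of 4 stellate cell markers 1 was past 2-fold on the higher side, Des (1.44), and 1 on the lower side, Lrat (-1.74). No measured marker was listed at 0. The part of these cells in the carrier differences was not tested. The deposited values were already on a shared scale, which brings their medians close, with 231.8 for AKI and 225.8 for sham. On that scale the hybridization controls had a median difference of -0.30 and the reference genes one of 0.20.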

How the data were processed

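Per the labels' protocols, total RNA was extracted with Trizol from pooled liver and biotinylated cRNA was hybridized to Affymetrix arrays. The authors deposited linear signal intensity for each probe set, made with software not named in those labels. Leaving out the highest 2% and lowest 2% of probe sets gave a mean of 500.00 on both arrays, which therefore share a scale. Of 45101 probe sets, 64 controls were left out of the genes, 932 had several symbols (of which 1 includes an Slc25a symbol) and 9160 none. By gene number, all 93 carrier probe sets matched RefSeq with 0 symbols altered. Differences of log2(signal + 71.8) were computed in Python 3.11.15 with numpy 2.4.6 and pandas 2.3.3, with no filter on low signal, and the computation was tested on simulated data. Figures used matplotlib 3.10.9.

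The members and lists were chosen with earlier results of these data known. Every carrier was named. Of each partner list, up to 3 genes past 2-fold with the largest absolute difference were named. A search of carrier proteins for the family's signature was not run. The alternatives were 4 scalings (median centring, quantile normalization, centring on 18 hybridization controls or on 10 reference genes), another pseudocount (1, or 228.7, the table median), the mean of all probe sets, dropping suffixed probe sets (_s_at, _x_at, _a_at), and keeping genes with a mean signal of at least 403. With 1 array per group, the number of arrays limits the precision.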

Additional observations from a re-analysis of the deposited data

How the results depend on the processing

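The counts and medians were recomputed under 9 alternatives. Counts and shares given for each alternative are of genes at least 2-fold higher or lower. Centring on hybridization controls gave 3 carriers at least 2-fold higher, a carrier median of 0.20 and 5 partner genes higher. Over all genes it gave 2870 higher and 1201 lower, against 1724 and 1931 with the deposited scaling. Centring on reference genes gave 10 carriers at least 2-fold lower and a carrier median of -0.29, with 1228 genes higher and 2690 lower over all. A pseudocount of 1 gave 2 carriers higher and 8 lower, with 15.2% of all genes higher and 15.8% lower. The mean of all probe sets gave 2 carriers higher and 6 lower, with 6.80% of all genes higher and 7.96% lower, and 1 partner gene higher and 20 lower. With a mean signal of at least 403 the median was -0.28 for the carriers and -0.03 for all genes. The cause of these changes was not tested, beyond what each setting does by its construction. No alternative turned the sign of a carrier that had passed 2-fold. Slc25a23, Slc25a13 and Slc25a15 stayed at least 2-fold lower under all 8 alternatives that give single genes, and Slc25a11 and Slc25a42 under 7 of 8. These counts are not independent checks. Slc25a23, Slc25a13 and Slc25a11 have 1 unsuffixed probe set each, so the alternatives on probe sets could only repeat their values. Median centring and centring on hybridization controls or reference genes shift all genes by the same amount. Of 44 carriers, 30 kept their sign under the 4 scalings, 14 higher and 16 lower. The other 14 differed by at most 0.29. Over single carriers, 343 values moved by less than the SD within genes over all genes (0.68) and 5 by more: Slc25a24 (-0.41), Slc25a29 (0.61) and Slc25a42 (-0.20) with the mean of all probe sets, and Slc25a3 (1.30) and Slc25a36 (0.80) without suffixed probe sets. Slc25a51 (1.26) and Slc25a44 (-0.37) with the mean of all probe sets moved by more than the SD within carriers (0.55). No paired analysis was possible because each group has 1 array. Weak signals limit what can be seen for the 16 carriers below 403.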
